A study of Mus musculus with 62 samples.

Results

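Gastrocnemius muscle of mice carrying melanoma cells that cause cachexia (CAC, 5 libraries) was compared with that of mice carrying melanoma cells that do not (NCAC, 5 libraries), both taken 2 weeks after the cells were injected. These 10 libraries, of 62 in the study, were chosen by the tumour and the week in their labels. Every gene with at least 1 TPM (transcripts per 1000000 transcripts, a scale corrected for gene length) in 5 or more of the 62 libraries was tested, which gave 12364 genes. The whole study followed CAC, NCAC and mock-injected mice (Con) over 2, 4, 6 and 8 weeks by poly(A)-selected stranded RNA sequencing. The mice were female and 2 months old when the cells were injected. The design text of the study names NCI Ath/nude mice, whereas the labels of the samples name the strain C57BL6/J, and no genetic change or drug is given for any group. The treatment label names cachectic cells for every sample, so groups were taken from the sample descriptions. Mock-injected muscle at 2 weeks (5 libraries) is given beside both tumour groups as the level without a tumour. The melanoma lines are not named, and neither tumour size nor the weight of the mice is given in the sources used here. The libraries are called biological replicates there, without a statement that each came from a mouse of its own, so p-values measure the spread between these libraries.

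In cachexia, a tumour-bearing animal loses skeletal muscle and adipose tissue that feeding does not restore. Interleukin-6 (IL-6) and related cytokines bind receptors on the muscle fibre that share the subunit gp130, and the JAK kinases bound to it phosphorylate the transcription factor STAT3. Phosphorylated STAT3 enters the nucleus and raises acute phase genes, its own gene and Socs3, whose product blocks the same receptors. In wasting muscle the ubiquitin ligases MuRF1 and atrogin-1, encoded by Trim63 and Fbxo32, mark contractile and other muscle proteins for breakdown.

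At 2 weeks, 145 of the 12364 genes (1.17%) differed between CAC and NCAC at an adjusted p under 0.05 in limma, a linear model fitted to log2(TPM + 1). Higher in CAC were 143 (1.16%) and lower were 2 (0.0162%). Stat3 and Trim72, a gene of muscle membrane repair, had the lowest p-values. Socs3, complement genes, cytokine receptor genes and several membrane transport genes were also higher, whereas Trim63 and Fbxo32 did not pass the test. The differences of the 143 ran from 0.24 to 2.28 on the log2 scale with a median of 0.62, and 24 of them were above 1. For 113 of the 143, all 5 CAC libraries lay above all 5 NCAC libraries, an order found in 9.27% of all tested genes. The spread was taken over all 62 libraries: taken from the 2-week libraries alone it gave 1171 calls, and from these 10 alone 94.

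**Figure D1:**
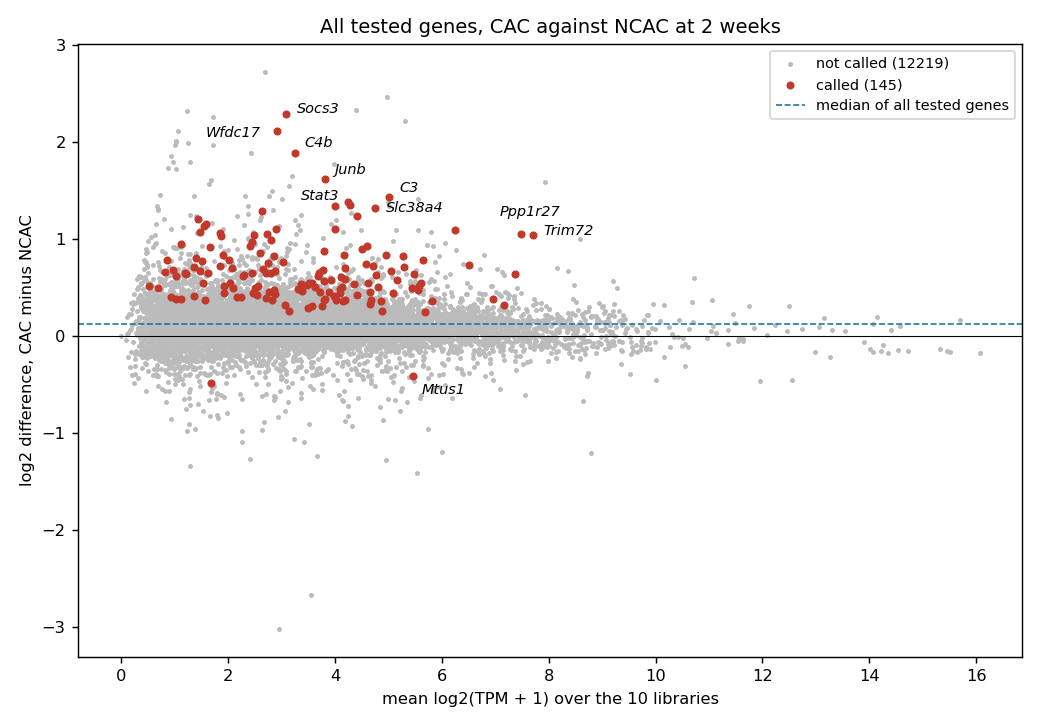
Each point is a tested gene, with its mean log2(TPM + 1) over the 10 libraries on the x axis and the log2 difference of CAC from NCAC at 2 weeks on the y axis, and coloured points are the 145 genes called by limma. Nearly all coloured points lie above 0, and Stat3 and Socs3 are among the named ones.

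The 2-week libraries held an estimated 39.6 to 46.9 M reads and 17061 to 17851 genes above 0 TPM. Markers of skeletal muscle fibres summed to between 98987 and 126050 TPM in the 15 libraries of that week. T and NK cell markers summed to at most 1.57 TPM. The pigment cell gene Tyr was at 0 in all 10 tumour libraries, but only 2 of 11 melanocyte and melanoma markers were. Those 11 summed to 25.4 to 43.02 TPM in CAC, 20.04 to 31.72 TPM in NCAC and 23.77 to 38.07 TPM in Con. None of the 4 tested ones was called, and the source of their RNA was not tested.

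CAC replicates 3 and 4 stood apart from the other libraries of the week. On the first principal component of the 15 libraries, which held 33.0% of the variance, they were at 28.7 and 47.9, and the other 13 lay between -14.2 and 9.01. Both held RNA of epidermis: 9 epidermal markers summed to 433 and 142 TPM there, against 1.86 to 7.03 TPM in the other 13. Krt14, a keratin of the basal layer of skin, was at 54.8 and 16.2 TPM in these 2 libraries and at no more than 0.401 TPM in any other. Macrophage and monocyte markers summed to 290 and 812 TPM there, against 163 to 172 TPM in CAC replicates 1, 2 and 5, 93.9 to 140 TPM in NCAC and 88.3 to 201 TPM in Con. In bulk muscle, more cells of a type and more RNA per cell cannot be told apart. Fibroblast markers summed to 1455 to 2755 TPM in CAC, highest in replicate 4, and to 1200 to 1523 TPM in NCAC.

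**Figure D2:**
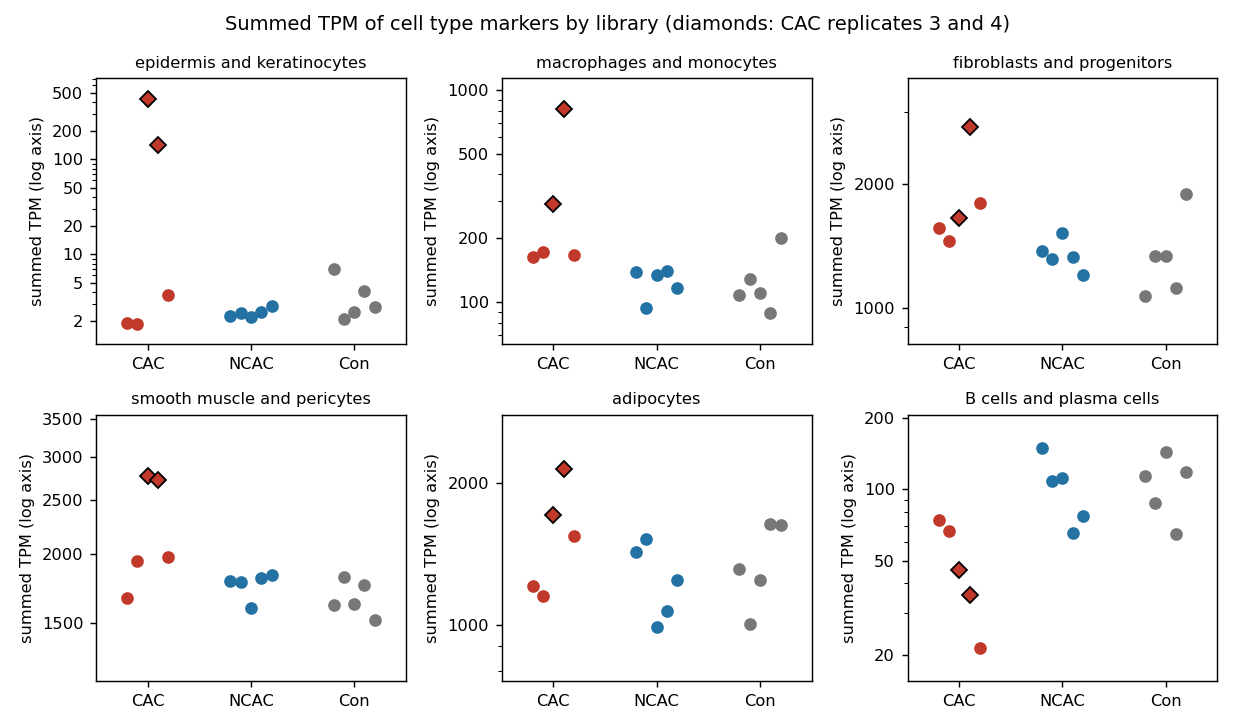
Summed TPM of the marker genes of 6 cell types in each 2-week library, on a log axis, with CAC replicates 3 and 4 as diamonds. The epidermal sum of these 2 libraries is far above all others, and the macrophage sum is highest in CAC replicate 4 at 812 TPM.

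The count of genes called fell when these 2 libraries were left out. In 92 of the 143 higher genes (64.3%) CAC replicates 3 and 4 were the 2 highest CAC libraries, an order found in 18.0% of all tested genes. Without both, limma called 2 genes (0.0162%), Stat3 and Trim72, and 959 passed at an unadjusted p under 0.05. All 143 differences stayed above 0 without them, with a median of 0.42 against 0.11 over all tested genes. The remaining libraries had also served to choose the 143, so these values are no separate test. For the 113 genes without overlap the sign was fixed in advance. Leaving out CAC replicate 3 alone left 26 calls, and leaving out CAC replicate 4 alone left 14. Without CAC replicate 1, 2 or 5 there were 257, 417 and 110, and without any 1 NCAC library 41 to 101. With the 2-week libraries fitted alone, 38 calls remained without CAC replicates 3 and 4. No other pair of libraries was left out for comparison, and fewer libraries can by themselves make calls rarer. What part the epidermal or macrophage RNA has in the 143 differences was not tested, and values without these 2 libraries are given below.

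The balance of the 2 directions depended on how the libraries were scaled. TPM add up to the same total in every library, and genes of the mitochondrial genome took 32.6% ± 2.12 of it in CAC (SD, n = 5), 36.4% ± 1.33 in NCAC and 34.1% ± 0.82 in Con. The difference of 3.83 percentage points between CAC and NCAC had an exact permutation p of 0.00794 (two-sided), the smallest that 5 against 5 libraries allow. NCAC minus Con was 2.30 points (exact permutation p 0.0159), and CAC minus Con was -1.53 points (exact permutation p 0.214). Leaving out CAC replicates 3 and 4 gave an exact permutation p of 0.0357 for a difference of 2.32 points. The median log2 difference over all tested genes was 0.12, with 81.2% of genes above 0. Rescaling each library by its median ratio moved that median by -0.12 and left 51% of genes above 0. Then 56 genes were called (0.453%), 44 higher (0.356%) and 12 lower (0.0971%), so the share of calls that were higher went from 98.6% to 78.6%. Of the 145 genes, 46 were also called after rescaling, and all 143 higher genes kept their direction. Genes described below that lost their call after rescaling were Ptpn2, C3, Csf1, Fcrls, Wfdc17, Nog, Ppp1r27, Mmp14, Slc39a1, Pdia4, Agt, Pros1 and Tnfrsf1b.

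Stat3 encodes the transcription factor that IL-6 type cytokines activate. It was at 23.1, 26.6, 39.8, 39.3 and 24.4 TPM in CAC replicates 1 to 5 and at 11.9, 10.1, 11.4, 11.8 and 10.6 TPM in NCAC. Every CAC library lay well above the NCAC range, and replicates 3 and 4 were the highest. The log2 difference was 1.34 (SE 0.129), with a limma adjusted p of 2e-10. The mean of Con muscle, 11.8 TPM, lay within the NCAC range, while Con replicates 4 and 5 lay above that range at 13.3 and 12.7 TPM. Without CAC replicates 3 and 4 the difference was 1.08, with a limma adjusted p of 9.7e-07, and Stat3 passed in all 24 alternative fits.

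Trim72, chosen after its values were seen, encodes MG53, a muscle protein that seals tears in the fibre membrane. It was at 275, 289, 319, 355 and 262 TPM in CAC and at 141, 147, 128, 154 and 153 TPM in NCAC. Here too the groups did not overlap, and the lowest CAC library exceeded the highest NCAC library by more than the whole NCAC range. The log2 difference was 1.04 (SE 0.110), with a limma adjusted p of 2.96e-09, and 0.93 without CAC replicates 3 and 4, with an adjusted p of 6.8e-06. Con libraries averaged 166 TPM. Stat3 and Trim72 were the only genes that kept their call in all 24 alternatives.

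**Figure D3:**
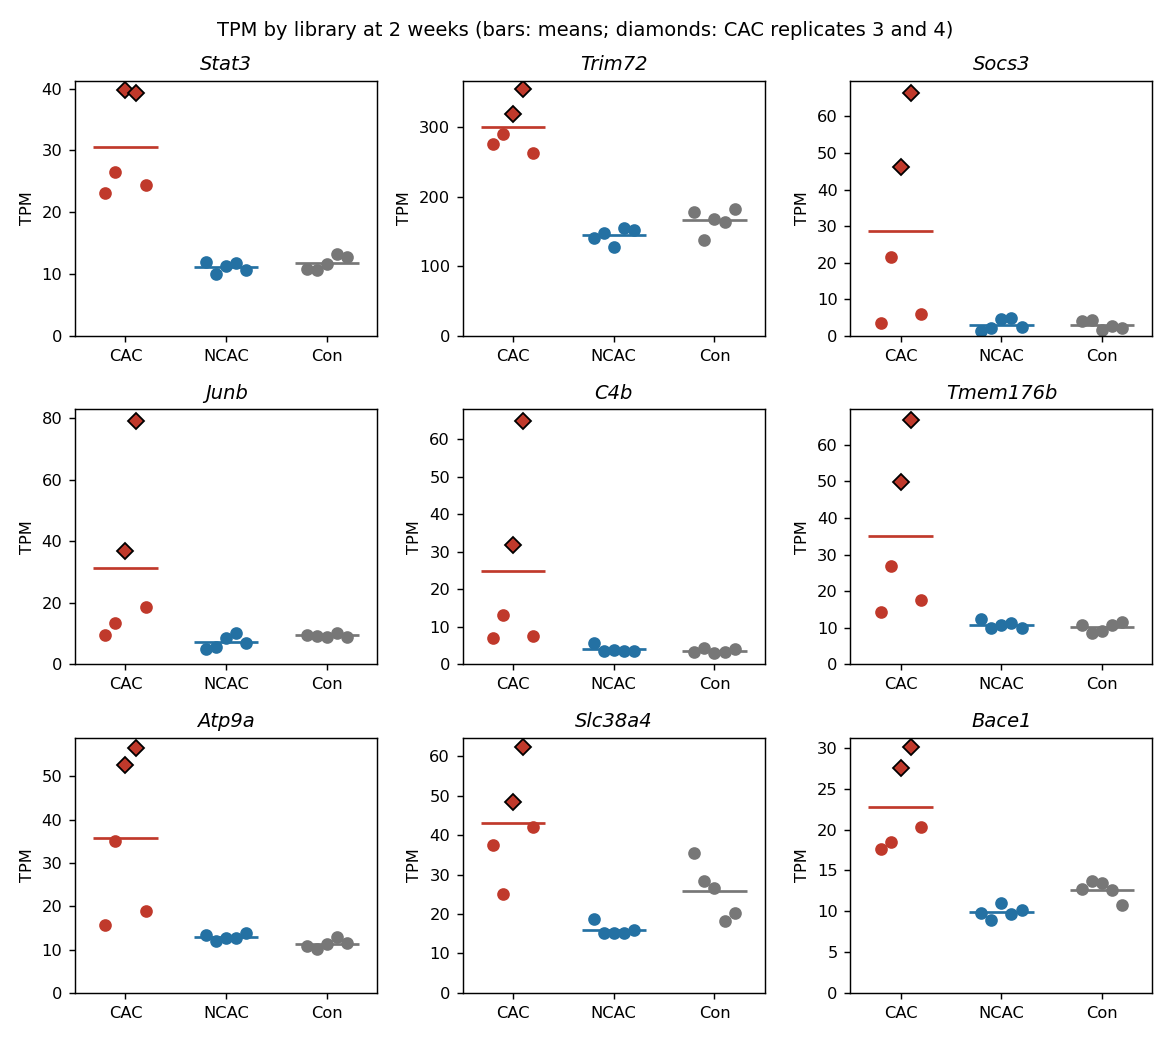
TPM of 9 genes in each 2-week library of CAC, NCAC and Con, with the mean of each group as a bar and CAC replicates 3 and 4 as diamonds. In Stat3 and Trim72 all 5 CAC libraries stand apart from NCAC, while Socs3 and Junb overlap.

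Socs3, the feedback inhibitor that STAT3 raises, had the largest difference of all called genes. It was at 3.55, 21.5, 46.2, 66.4 and 6.09 TPM in CAC and at 1.38, 2.15, 4.68, 4.99 and 2.36 TPM in NCAC. CAC replicates 2, 3 and 4 were far above NCAC, replicate 1 lay within the NCAC range and replicate 5 just above it. The log2 difference was 2.28 (SE 0.417), with a limma adjusted p of 0.00136, and 1.22 without CAC replicates 3 and 4, with an adjusted p of 0.54.

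Junb, a subunit of the AP-1 transcription factor that IL-6 type cytokines also induce, was at 9.67, 13.3, 36.7, 79.1 and 18.6 TPM in CAC and at 4.91, 5.82, 8.48, 10.4 and 6.84 TPM in NCAC. Replicates 3 and 4 were again highest, and replicate 1 fell inside the NCAC range. The log2 difference was 1.61 (SE 0.348), with a limma adjusted p of 0.0118, and 0.84 without CAC replicates 3 and 4. Ptpn2, a phosphatase that removes phosphate from JAK kinases and STATs, had a smaller difference of 0.43 (adjusted p 0.0489), with overlapping groups, and of 0.31 without CAC replicates 3 and 4, where neither it nor Junb passed.

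Stat3, Socs3, Junb and Ptpn2 were the 4 genes called among 25 measured genes of IL-6 and STAT3 signalling, where 1.17% of all tested genes were called. The list had a median log2 difference of 0.17, close to the 0.12 over all tested genes, and of 0.04 after rescaling. The 3 receptor genes described here did not pass the test over all libraries. Osmr, the receptor subunit for oncostatin M, differed by 0.71 (adjusted p 0.0535), with 1.55 to 4.16 TPM in CAC and 0.92 to 1.49 TPM in NCAC and no overlap. It was close to the threshold: 17 of 24 alternative fits did not call it and the others did, with an adjusted p of 0.0228 when the 2-week libraries were fitted alone and of 0.641 without CAC replicates 3 and 4. Il6st, which encodes gp130, differed by 0.38 (adjusted p 0.0891), again without overlap, and had an adjusted p of 0.00996 with the 2-week libraries alone and of 0.634 without CAC replicates 3 and 4. Il6ra, the receptor subunit that binds IL-6 itself, was at 1.58 to 2.99 TPM in CAC and at 1.21 to 3.98 TPM in NCAC, with overlapping groups.

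To show the DNA before genes that differ together, the stretch of 250 bases upstream of the start listed by RefSeq (GRCm38.p6) was read for the genes printed here. The motif searched was TTCNNNGAA, the core that STAT dimers bind, which is its own reverse complement, so that 1 search covers both strands. Stat3 and Trim72, whose differences were called in every fit, hold no match in the stretch printed. Socs3 has the match TTCTTAGAA, and Steap4, a metal reductase gene described below, has TTCCCGGAA. Capitals mark the match, and each stretch runs 5′ to 3′ on the strand of the gene.
Stat3, chr11:100939541-100939790, minus strand: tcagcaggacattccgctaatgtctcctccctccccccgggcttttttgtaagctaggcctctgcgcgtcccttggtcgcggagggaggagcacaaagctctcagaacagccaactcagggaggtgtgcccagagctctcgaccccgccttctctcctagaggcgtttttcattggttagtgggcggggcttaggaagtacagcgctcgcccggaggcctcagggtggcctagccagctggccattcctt
Trim72, chr7:128004128-128004377, plus strand: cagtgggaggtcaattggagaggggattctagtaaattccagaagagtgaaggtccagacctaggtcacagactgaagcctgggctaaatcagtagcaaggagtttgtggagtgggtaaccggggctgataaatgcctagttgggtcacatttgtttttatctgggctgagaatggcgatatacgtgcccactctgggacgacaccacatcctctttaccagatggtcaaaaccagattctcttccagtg
Socs3, chr11:117969367-117969616, minus strand: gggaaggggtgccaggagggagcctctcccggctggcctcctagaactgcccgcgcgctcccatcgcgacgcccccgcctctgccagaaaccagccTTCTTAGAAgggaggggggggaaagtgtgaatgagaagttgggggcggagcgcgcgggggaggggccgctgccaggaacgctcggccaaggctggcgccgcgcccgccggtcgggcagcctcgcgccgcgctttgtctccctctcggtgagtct
Steap4, chr5:7960222-7960471, plus strand: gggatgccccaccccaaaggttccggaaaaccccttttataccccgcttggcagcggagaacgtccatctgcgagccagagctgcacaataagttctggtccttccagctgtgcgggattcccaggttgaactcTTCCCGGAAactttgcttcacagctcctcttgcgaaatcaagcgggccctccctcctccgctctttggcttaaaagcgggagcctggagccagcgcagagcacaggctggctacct

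In a window from 250 bases before to 50 after the start, 22 of the 104 higher genes whose promoters were searched held the motif (21.2%). The other 39 higher genes had no RefSeq entry or lay on a chromosome left out of the search. The motif was held by 773 of 9280 tested genes (8.33%) and by 8.30% of the 32851 promoters searched. Among genes with a single listed promoter the shares were 16 of 81 (19.8%) and 7.03%. A match is a string of letters and not a site shown to be bound. A shorter window around the match is shown for 4 further genes of the 22 that differ in function, all chosen after their values were seen: Agt, the precursor of angiotensin; Pros1, the anticoagulant protein S; Tnfrsf1b, a receptor for tumour necrosis factor; and Dnajc13, a chaperone partner of the endosome.
Agt, chr8:124569850-124569898, minus strand: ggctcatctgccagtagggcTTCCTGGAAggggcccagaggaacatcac
Pros1, chr16:62854195-62854243, plus strand: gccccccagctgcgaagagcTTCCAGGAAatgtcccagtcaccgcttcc
Tnfrsf1b, chr4:145247023-145247071, minus strand: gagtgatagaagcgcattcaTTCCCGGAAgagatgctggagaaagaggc
Dnajc13, chr9:104263036-104263084, minus strand: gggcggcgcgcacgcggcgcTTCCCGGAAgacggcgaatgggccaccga
These 4 genes had log2 differences of 0.86, 0.76, 0.72 and 0.48 in the same order, each with all CAC libraries above all NCAC libraries. Agt was at 6.01, 6.04, 9.17, 10.7 and 5.28 TPM in CAC and at 3.06, 4.1, 3.55, 3.64 and 3.31 TPM in NCAC. The differences of the 4 genes without CAC replicates 3 and 4 were 0.58, 0.38, 0.52 and 0.39, with adjusted p between 0.31 and 0.66.

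Complement genes had higher values in CAC. All 18 measured members had a difference above 0, as did 81.2% of all tested genes. The list median was 0.94, against 0.12 over all tested genes. The test was passed by 4 of the 18, C4b, C3, Serping1 and C5ar1, where 1.17% of all tested genes passed. C4b, a component of the classical pathway, was at 6.95, 13.3, 31.8, 64.8 and 7.59 TPM in CAC and at 5.73, 3.65, 3.74, 3.61 and 3.48 TPM in NCAC. All CAC libraries exceeded NCAC, but replicates 1 and 5 only by a little. The log2 difference was 1.89 (SE 0.423), with a limma adjusted p of 0.0136. Mouse C4b has a close copy, C4a, and how reads shared by both were counted is not given in the sources used here.

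Serping1 encodes the inhibitor of complement component C1. It was at 65, 85.2, 136, 256 and 79.7 TPM in CAC and at 53.1, 52.6, 56.2, 47.3 and 45.6 TPM in NCAC, with no overlap and a log2 difference of 1.09 (SE 0.250, adjusted p 0.0163). C3, on which the complement pathways converge, was at 25.6, 30.4, 93, 158 and 31.6 TPM in CAC and at 26, 19.3, 18.8, 14.7 and 16 TPM in NCAC. Its groups overlapped through CAC replicate 1 and NCAC replicate 1, and the difference was 1.43 (adjusted p 0.0347). C5ar1, the receptor for the complement fragment C5a on myeloid cells, differed by 0.95 (adjusted p 0.0312), with CAC replicate 4 at 6.77 TPM and the other CAC libraries between 1.1 and 2.38 TPM.

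The median of the complement list without CAC replicates 3 and 4 was 0.41, and none of its genes was then called in limma. C4b then differed by 0.99, Serping1 by 0.57, C3 by 0.62 and C5ar1 by 0.45. The macrophage sum was highest in the same 2 libraries, at 290 and 812 TPM, and its part in the complement differences was not tested. C1qc, made mainly by macrophages, was at 13.3, 15, 27.4, 73.3 and 11.1 TPM in CAC and at 6 to 11.3 TPM in NCAC, and did not pass the test (1.15, adjusted p 0.0914, or 0.47 without CAC replicates 3 and 4).

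Of 18 tested acute phase genes in a list of 20, 2 passed the test, where 1.17% of all tested genes did. The list median was 0.50, against 0.12 over all tested genes. Il1r1, the signalling receptor for interleukin-1, was at 2.41, 2.32, 4.24, 5.44 and 3.09 TPM in CAC and at 1.39, 1.32, 1.55, 1.16 and 1.16 TPM in NCAC. The groups did not overlap, and the difference was 0.91 (SE 0.180, adjusted p 0.00382). Steap4 was at 20.8, 26.3, 41.9, 53 and 28.9 TPM in CAC and at 18.2, 18.3, 16.9, 15.5 and 14.5 TPM in NCAC, a difference of 0.92 (adjusted p 0.0136). With CAC replicates 3 and 4 left out, Il1r1 differed by 0.64 and Steap4 by 0.57, and neither passed.

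The classical secreted acute phase proteins varied widely between CAC libraries. Hp, which encodes haptoglobin, was at 9.23, 26.8, 166, 383 and 11.7 TPM in CAC and at 13.9, 13.5, 3.97, 5.84 and 9 TPM in NCAC. Its difference of 2.33 came from replicates 2, 3 and 4, and did not pass the test (adjusted p 0.0881). Serpina3n, a serine protease inhibitor, showed the same split, at 36.7 and 88.6 TPM in CAC replicates 3 and 4 and at 3.64 to 9.27 TPM in the other CAC libraries, with 3.56 to 5.07 TPM in NCAC (1.54, adjusted p 0.138). These differences were 0.71 for Hp and 0.25 for Serpina3n without CAC replicates 3 and 4. Lcn2, which encodes the iron-binding protein lipocalin 2, had its lowest values in CAC replicates 1 and 5 and differed by 0.43 (adjusted p 0.722), and by -0.34 without CAC replicates 3 and 4. The list median was then 0.17.

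Csf2rb, Csf2rb2 and Tnfrsf1a, receptor genes of cytokines outside the gene lists, were among the called genes. Csf2rb, the shared receptor subunit for interleukin-3, interleukin-5 and GM-CSF, was at 1.95, 2.33, 4.49, 8.86 and 2.38 TPM in CAC and at 1.07, 0.824, 1.33, 1.08 and 0.804 TPM in NCAC, a difference of 1.15 (adjusted p 0.0226). Csf2rb2 differed by 1.07 (adjusted p 0.0256). It is a near copy of Csf2rb, so the split of reads between them is uncertain. Tnfrsf1a, the main receptor for tumour necrosis factor, was chosen after its values were seen. It was at 23.7, 26.5, 41.8, 52.3 and 27.5 TPM in CAC and at 18.8, 19, 21, 20.4 and 18.5 TPM in NCAC, a difference of 0.72 (adjusted p 0.0146). With CAC replicates 3 and 4 left out, Csf2rb differed by 0.68, Csf2rb2 by 0.59 and Tnfrsf1a by 0.39, and none passed.

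Csf1, the growth factor of macrophages, was the 1 gene called among 15 tested chemokines and cytokines, of 26 in the list. The median of the 15 was 0.55 (1.17% called and a median of 0.12 over all tested genes). Csf1 was at 5.66, 6.09, 7.84, 14.6 and 6.59 TPM in CAC and at 4.04, 3.36, 5.54, 4.66 and 3.47 TPM in NCAC, with no overlap and a difference of 0.75 (adjusted p 0.0374), or 0.46 without CAC replicates 3 and 4. Ccl8, a chemokine that attracts monocytes, was at 68.5 and 238 TPM in CAC replicates 3 and 4 and at 2.02 to 5.61 TPM in the others, against 0.285 to 4.33 TPM in NCAC. Its difference of 2.72 had an adjusted p of 0.0643, and was 0.75 without these 2 libraries.

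None of the 15 macrophage and monocyte markers was called, where 1.17% of all tested genes were. All 15 had a difference above 0, as did 81.2% of all tested genes. The median of the 15 was 0.92, against 0.12 over all tested genes. Without CAC replicates 3 and 4 these medians were 0.34 and 0.11. Among the called genes, Fcrls, a receptor-like gene of macrophages, differed by 1.06 (adjusted p 0.0489), with 2.31 to 10.3 TPM in CAC and 1.02 to 1.84 TPM in NCAC. Wfdc17, a gene of activated macrophages chosen after its values were seen, was at 4.67, 6.42, 35.3, 139 and 3.48 TPM in CAC and at 1.27 to 3.7 TPM in NCAC (2.11, adjusted p 0.0477). Both genes followed the macrophage sum in having CAC replicate 4 highest, and without CAC replicates 3 and 4 they differed by 0.63 and 0.65. The part of the macrophage RNA in the receptor, Csf1, Fcrls and Wfdc17 differences was not tested.

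Atp9a, Tmem176b, Tmem176a, Slc38a4 and Piezo1 were among the 15 largest rises without overlap. Atp9a, a lipid flippase of endosomes, was at 15.8, 35, 52.7, 56.5 and 19 TPM in CAC and at 13.3, 12, 12.7, 12.6 and 13.9 TPM in NCAC. NCAC was narrow and CAC spread upward from it without overlap, for a difference of 1.24 (SE 0.222, adjusted p 0.00113). Tmem176b and Tmem176a, neighbouring genes for cation channels of intracellular membranes, had differences of 1.37 (adjusted p 0.00139) and 1.29 (adjusted p 0.00537). Tmem176b was at 14.3, 26.9, 49.8, 66.7 and 17.5 TPM in CAC and at 9.87 to 12.3 TPM in NCAC, with the same order of CAC libraries as Atp9a. The 2 genes lie on opposite strands and overlap at their ends, and it is not stated whether counting used the strand. Leaving out CAC replicates 3 and 4 brought the differences of Atp9a, Tmem176b and Tmem176a to 0.72, 0.75 and 0.64, none of which passed.

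Slc38a4, a transporter of neutral amino acids, was at 37.5, 25, 48.4, 62.3 and 42.2 TPM in CAC and at 18.7, 15.3, 15.2, 15.2 and 15.9 TPM in NCAC. Its lowest CAC library was replicate 2, which was above replicates 1 and 5 for Atp9a and Socs3. The difference was 1.31 (SE 0.263, adjusted p 0.00458) and 1.05 without CAC replicates 3 and 4. Con libraries spanned 18.1 to 35.4 TPM and overlapped both tumour groups. Piezo1, a channel opened by membrane stretch, was at 17.9, 17.7, 39.5, 45.8 and 14.9 TPM in CAC and at 8.14 to 11 TPM in NCAC, a difference of 1.34 (adjusted p 0.0148), or 0.83 without CAC replicates 3 and 4.

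Bace1, the beta-secretase that cleaves membrane proteins, was at 17.6, 18.4, 27.6, 30.2 and 20.3 TPM in CAC and at 9.8, 8.97, 11.1, 9.63 and 10.1 TPM in NCAC. All CAC libraries were clearly above NCAC, and the difference was 1.10 (SE 0.199, adjusted p 0.0013), or 0.86 without CAC replicates 3 and 4. Mcu, the calcium uniporter of the mitochondrial inner membrane, was chosen after its values were seen and was at 12.4, 14.7, 17.2, 18.4 and 13.8 TPM in CAC and at 8.22, 8.85, 10.2, 10.2 and 9.33 TPM in NCAC. Its difference of 0.64 (adjusted p 0.000755) was 0.50 without these 2 libraries. Slc39a1, a zinc importer, was the 1 gene called among 8 tested metallothionein and zinc transporter genes (10 in the list), whose median was 0.27. Over all tested genes, 1.17% were called and the median was 0.12. Slc39a1 differed by 0.47 (adjusted p 0.0118), or by 0.30 without CAC replicates 3 and 4. Mt1 and Mt2, the metallothioneins that bind zinc, did not pass: Mt1 was at 35.3, 81.4, 221, 149 and 36.4 TPM in CAC and at 31.7 to 85.5 TPM in NCAC. Mt1 differed by 0.83 and Mt2 by 1.33, or by 0.06 and 0.15 without CAC replicates 3 and 4.

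Ppp1r27, a muscle-enriched regulator of protein phosphatase 1, was highest in CAC replicate 5, unlike the genes above. It was at 211, 166, 273, 323 and 370 TPM in CAC and at 108, 142, 142, 116 and 116 TPM in NCAC, while Con averaged 202 TPM. The difference of 1.05 (adjusted p 0.0425) went with a NCAC level below Con (-0.67) and a CAC level near Con (0.39). Nog, which encodes noggin, an inhibitor of bone morphogenetic proteins, was at 6.37, 11, 12.7, 16.1 and 6.29 TPM in CAC and at 2.9 to 4.78 TPM in NCAC (1.10, adjusted p 0.0248). Wbscr17, a glycosyltransferase gene that starts O-linked sugar chains, was at 2.16, 1.8, 4.96, 6.67 and 2.88 TPM in CAC and at 0.767 to 1.24 TPM in NCAC (1.13, adjusted p 0.000131). Limch1, an actin-binding protein gene chosen after its values were seen, had a small but even difference of 0.58 (adjusted p 8.72e-05), from 36 to 52.3 TPM in CAC and from 26.7 to 31.1 TPM in NCAC. With CAC replicates 3 and 4 left out, Ppp1r27 differed by 0.92, Nog by 0.77, Wbscr17 by 0.71 and Limch1 by 0.44, and none passed.

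All 30 measured collagen and matrix genes had a difference above 0, as did 81.2% of all tested genes. The median of the 30 was 0.56, against 0.12 over all tested genes. Of them 1 was called, Mmp14, a membrane-bound matrix protease (0.99, adjusted p 0.0434, overlapping groups), where 1.17% of all tested genes were. Lox, which cross-links collagen, differed by 1.29 (adjusted p 0.0544), and Col1a1, the main fibrillar collagen gene, by 0.41 (adjusted p 0.654). Without CAC replicates 3 and 4 the differences of Mmp14, Lox and Col1a1 were 0.65, 0.50 and 0.33, and none passed. Fibroblast markers had a median of 0.47, and their summed level was highest in CAC replicate 4, at 2755 TPM. The part of fibroblast RNA in the matrix values was not tested. The matrix median was 0.33 without CAC replicates 3 and 4, against 0.11 over all tested genes.

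Trim63 and Fbxo32 did not differ detectably at 2 weeks. Trim63 was at 120, 162, 169, 215 and 147 TPM in CAC and at 134, 152, 149, 143 and 130 TPM in NCAC. Fbxo32 was at 62.3, 87, 60.1, 108 and 63.4 TPM in CAC and at 43, 72, 77.5, 102 and 47.1 TPM in NCAC. Both pairs of groups overlapped, and the log2 differences were 0.17 (SE 0.504) and 0.19 (SE 0.489), with limma adjusted p of 0.857 and 0.837. These SEs take in the later weeks: the SD of Trim63 in CAC was 34.8 TPM at 2 weeks and 771 TPM at 6 weeks. With the 2-week libraries fitted alone, the limma adjusted p were 0.348 for Trim63 and 0.638 for Fbxo32. Without CAC replicates 3 and 4 the differences were 0.00095 and 0.11. The list of muscle ubiquitin ligases does not hold Trim72, which was called. None of its 18 genes, 37 proteasome subunits, 28 autophagy and lysosome genes or 20 FoxO factors and targets was called. Their medians were 0.09, 0.06, 0.21 and 0.18, and after rescaling -0.05, -0.09, 0.07 and 0.05, so that the first pair of lists changed sign. With the 2-week libraries fitted alone, where 9.15% of all tested genes were called higher, 3 ligases, 5 autophagy and lysosome genes and 4 FoxO genes were called higher, and with the 2 groups alone (0.728%) 1 ligase was.

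Glucocorticoid receptor targets had the lowest median of the pathway lists, at -0.29, with 5 of 20 genes above 0 and none called. Over all tested genes, 81.2% lay above 0 and 1.17% were called. Against Con the list median was 0.54 for NCAC and 0.21 for CAC, comparisons that share the Con libraries. Fkbp5, a co-chaperone of that receptor and one of its best known targets, was at 7.71, 16.1, 11.3, 9.36 and 7.54 TPM in CAC and at 21.1, 39.1, 6.8, 5.79 and 11.5 TPM in NCAC. NCAC replicates 1 and 2 held the highest values and NCAC replicates 3 and 4 the lowest, so the difference of -0.37 (adjusted p 0.759) was small beside the spread, and it was -0.39 without CAC replicates 3 and 4. Foxo1 was also highest in NCAC replicate 1, at 14.1 TPM.

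Respiratory chain and contractile genes were not called in either direction. Of 37 nuclear complex I subunits, 0 had a difference above 0, with a median of -0.09, where 81.2% of all tested genes lay above 0. The 42 nuclear subunits of complexes II to V had a median of -0.10 and the 13 protein genes of the mitochondrial genome one of -0.17. These medians were -0.03, -0.03 and -0.09 without CAC replicates 3 and 4. Slow sarcomere genes had a median of -0.18 and fast ones of 0.05, which rescaling turned to -0.09. Myh4, the myosin of the fastest fibres, was at 10317 to 13181 TPM in CAC and at 8705 to 13236 TPM in NCAC. Of 76 ribosomal protein genes, 74 lay above 0 with a median of 0.14, which rescaling moved to -0.0023.

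**Figure D4:**
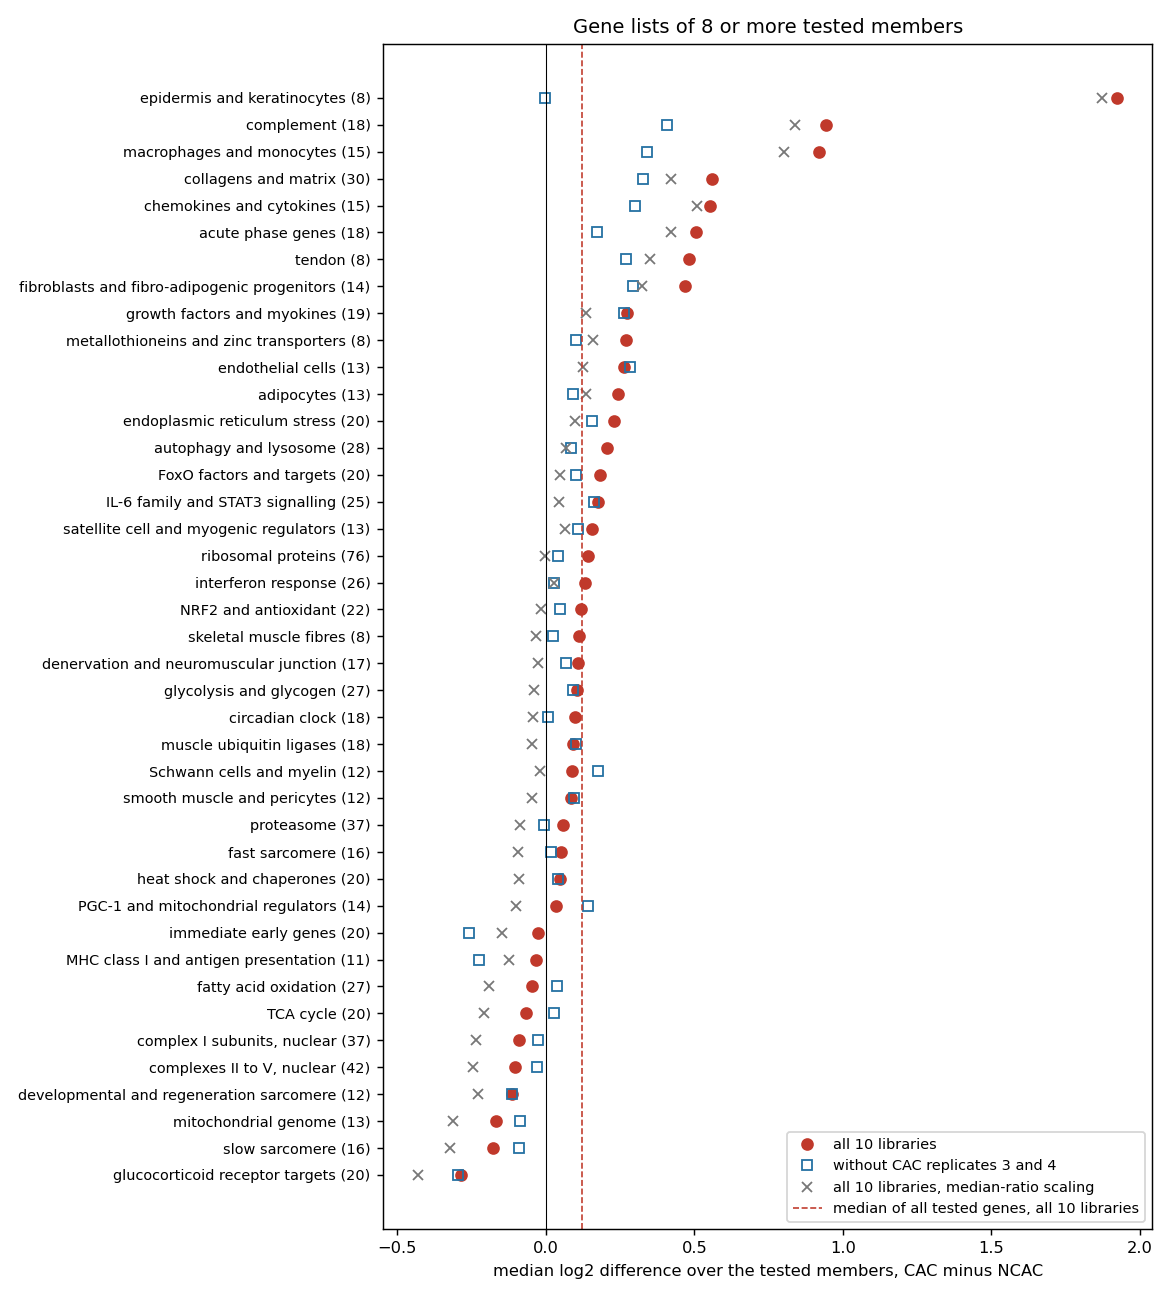
Median log2 difference of CAC from NCAC for each gene list, for all 10 libraries, without CAC replicates 3 and 4, and after median-ratio rescaling. Epidermal, complement and macrophage lists lie highest with all libraries, and without CAC replicates 3 and 4 the epidermal median falls from 1.92 to near 0.

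In all, 14 of the 145 called genes belonged to at least 1 list. The lists together hold 818 tested genes, so that 1.71% of these were called, beside 1.17% of all tested genes. Of 20 tested endoplasmic reticulum stress genes 1 was called, Pdia4, a chaperone that forms disulfide bonds (0.52, adjusted p 0.047, or 0.38 without CAC replicates 3 and 4). Of 20 tested immediate early genes (22 in the list) 1 was called, Junb. 
Those 2 lower genes were named after their values were seen. Mtus1, a tumour suppressor gene whose product binds microtubules, was at 36.1, 49, 37.7, 28.7 and 36.2 TPM in CAC and at 44.7, 46.4, 49.2, 53.4 and 54.6 TPM in NCAC, with Con at 42.2 TPM on average. CAC replicate 2 lay inside the NCAC range, and the difference was -0.41 (adjusted p 0.0403). The RNA 1810021B22Rik was at 1.22 to 2.25 TPM in CAC and at 2.48 to 3.19 TPM in NCAC, without overlap, a difference of -0.49 (adjusted p 0.0149). The values without CAC replicates 3 and 4 were -0.30 and -0.42, and neither passed.

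Muscle with the non-cachectic tumour gave no call against mock muscle. Against Con, limma called 0 genes for NCAC, with 471 at an unadjusted p under 0.05, and 35 for CAC (0.283%), of which 33 were higher (0.267%) and 2 lower (0.0162%). These comparisons share the CAC and NCAC libraries with the one above. The 143 genes had a median log2 difference of 0.47 for CAC from Con, against 0.09 over all tested genes. For NCAC from Con the medians were -0.14 and -0.04. For 124 of the 143 the Con mean lay between the NCAC and CAC means, and for 19 it lay below NCAC. The 143 had been chosen for CAC above NCAC, which by itself favours a Con mean in between. The share over all tested genes was not counted. Stat3 differed from Con by 1.27 in CAC and by -0.08 in NCAC. For Slc38a4 the values were 0.70 and -0.62, and for Ksr1, a scaffold of the MAP kinase cascade chosen after its values were seen, 0.43 and -0.35. Ksr1 differed between CAC and NCAC by 0.78, or by 0.69 without CAC replicates 3 and 4.

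The later weeks used other mice, but all weeks were tested in the same fit with a shared spread for each gene. A gene called at 2 weeks partly for a small spread is thereby favoured for a call at later weeks. Of the 143 higher genes, 108 were also called higher at 4 weeks (75.5%, where 18.1% of all tested genes were), 126 at 6 weeks (88.1%, against 64.1%) and 130 at 8 weeks (90.9%, against 67.5%). After rescaling these counts were 71 (against 2.97%), 82 (against 19.7%) and 73 (against 22.6%). In the other direction, 1 of the 143 was called lower at 8 weeks, and after rescaling 5 were at 6 weeks and 7 at 8 weeks. The median difference of the 143 was 0.62, 0.55, 0.75 and 0.68 at 2, 4, 6 and 8 weeks, while that of all tested genes was 0.12, 0.17, 0.37 and 0.37. After rescaling the medians of the 143 were 0.49, 0.41, 0.38 and 0.30, so their course over the weeks turned on the scaling. The choice of the 143 by their 2-week values by itself favours a high median at 2 weeks. Stat3 differed by 1.34, 1.76, 1.95 and 1.84 at 2, 4, 6 and 8 weeks, and Socs3 by 2.28, 3.38, 4.32 and 4.23. Trim72 stayed near its first value, at 1.04, 1.10, 1.16 and 1.13. Ppp1r27 differed by 1.05 at 2 weeks and by 0.16, 0.42 and 0.25 afterwards, and Bace1 by 1.10, 0.94, 1.12 and 0.56.

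Between 2 and 4 weeks no gene passed the test of a change in the difference itself. In limma 0 were called and 467 had an unadjusted p under 0.05, with a smallest adjusted p of 0.839. The 143 genes had a median change of -0.02, against 0.04 over all tested genes. They had been chosen by their 2-week difference, which by itself pulls their change downward. For Trim63 and Fbxo32 the differences at 4 weeks were 1.28 (adjusted p 0.061) and 1.39 (adjusted p 0.041). Of the 25 IL-6 and STAT3 signalling genes 13 were called higher at 4 weeks, when 18.1% of all tested genes were, and 4 at 2 weeks, when 1.16% were.

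**Figure D5:**
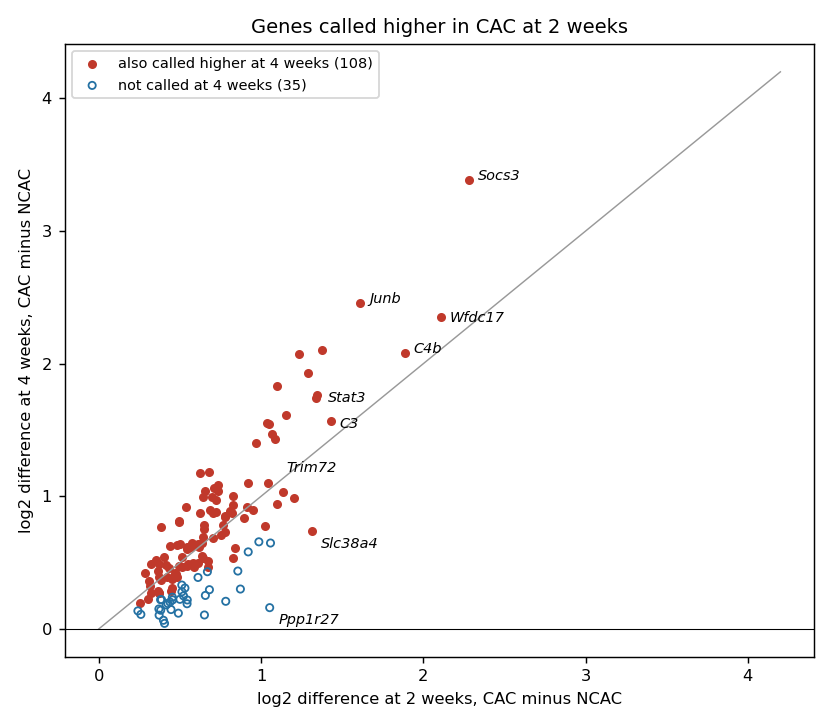
Log2 difference of CAC from NCAC at 2 weeks (x axis) and at 4 weeks (y axis) for the 143 genes called higher at 2 weeks, with filled points for the 108 also called at 4 weeks and open points for the other 35. All 143 lie above 0 at 4 weeks, and Socs3 lies farthest to the upper right.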

How the data were processed

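Poly(A) RNA of gastrocnemius muscle was sequenced after stranded TruSeq preparation, per the labels' protocols. The authors deposited 1 table of TPM values per gene for all 62 libraries. The genome build was mm10, per the submitters' processing notes, and the aligner, counter, annotation and use of strand are not stated in the labels or notes. Each column was matched to its sample by title, and groups came from the descriptions. Genes with at least 1 TPM in 5 libraries (12364) were analysed as log2(TPM + 1), a scale that understates changes of low genes. One limma model (limma 3.58.1, R 4.3.3, variance trend) was fitted over 12 groups of tumour and week, so all 62 libraries set the spread, and p-values were adjusted by Benjamini-Hochberg over all tested genes at 0.05. The model was run on simulated data with normal noise and, for each gene, the same spread in every group. That run cannot show how outlying libraries such as CAC replicates 3 and 4 affect the calls. The share of the mitochondrial genome was compared by an exact permutation test. Reads were estimated from the steps of low TPM values, so depth is approximate. Genes named are 30 fixed genes, up to 15 of the largest rises and falls without overlap between groups, passing over clone names, and the 3 lowest-p members of each list with a call. Members and lists were chosen with earlier results of these data known. Other genes described, among them Ptpn2, C3 and Il6st, fall outside this rule and were chosen with their values known. Alternatives were another pseudocount (0.1), other filters, no trend, array weights, median-ratio scaling, a fit without the mitochondrial genome, a replicate block, fewer groups in the fit and each library left out. The fits without CAC replicates 3 and 4 were added after seeing the data. Promoters came from RefSeq (GRCm38.p6).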

Additional observations from a re-analysis of the deposited data

Results flagged for a closer look

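In 122 groups checked, each the 5 libraries of CAC or NCAC for a gene named by the rule, 6 held a library whose gap to its nearest neighbour took an unusually large part of the range of its group. Chance gives about 1 such group in 20. NCAC replicate 1 was the high library for C4b (gap 0.857 of the range, 5.73 TPM), Piezo1 (0.725, 11 TPM) and Slc38a4 (0.787, 18.7 TPM). NCAC replicate 2 was low for Myh4 (0.792, 8705 TPM) and high for Il33, an alarm cytokine of tissue cells (0.838, 5.19 TPM). CAC replicate 4 was low for Nr4a1, an immediate early nuclear receptor gene (0.77, 76.4 TPM).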

How the results depend on the processing

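The number of genes called moved with most choices. Against 145, it was 1171 with the 2-week libraries fitted alone, 888 with array weights, 94 with the 2 groups alone, 56 after median-ratio scaling and 52 without the mitochondrial genome. Filters, pseudocount and variance trend gave 104 to 157. Leaving out 1 library gave 14 to 417: 26 and 14 without CAC replicate 3 or 4, 257 and 417 without CAC replicate 1 or 2, and 47, 69, 81 and 41 without NCAC replicate 1, 2, 4 or 5. Without CAC replicates 3 and 4 it was 2, also 2 with rescaling and 38 with the 2-week libraries alone. A replicate block gave 23, but the numbers share no stated source. Deviations of same-numbered CAC and NCAC libraries from their group means correlated at -0.0895 to 0.144. Of 24 named genes that were called, 5 kept their call with the 2 groups alone, 17 after rescaling, 2 under the block, 8 and 6 without CAC replicate 3 or 4, and 1 (Stat3) without both. The cause was not tested.

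Direction changed only in named genes that were not called. After rescaling, Il6ra was at -0.0533, Myh4 at -0.0959 and Myh11 at -0.131. Without the mitochondrial genome they were at -0.0131, -0.0353 and -0.0770. With array weights Ppargc1a was at 0.0767 and Myh11 at -0.00804. Without CAC replicates 3 and 4 Lcn2 was at -0.345 and Ppargc1a at 0.149, with or without the other weeks in the fit. With rescaling as well, Il6ra was at -0.0730, Lcn2 at -0.402, Mt1 at -0.0712, Trim63 at -0.130, Fbxo32 at -0.0226, Ppargc1a at 0.0307, Myh4 at -0.129 and Myh11 at -0.00775. With 1 library left out, values ran from -0.0685 to 0.224 for Il6ra, from -0.146 to 0.0802 for Ppargc1a, from -0.145 to 0.141 for Myh11, from -0.0580 to 0.106 for Myh4 and from -0.639 to 0.00186 for Fkbp5.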

Other observations

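Neutrophil markers were highest in a pair of NCAC libraries. They summed to 78.8 TPM in NCAC replicate 1 and 21.6 TPM in NCAC replicate 4, and to between 1.13 and 6.98 TPM in the other 13 libraries of the week. In NCAC replicate 1 the calcium-binding S100a9 was at 35.7 TPM, its partner S100a8 at 19.8 TPM, and the granule genes Ngp and Camp at 9.77 and 8.68 TPM. B cell and plasma cell markers summed to 21.3 to 74.0 TPM in CAC and to 65.4 to 149.5 TPM in NCAC, with overlap, and to 64.6 to 143 TPM in Con. Ighm, the heavy chain of immunoglobulin M, was at 71.4, 64.1, 43.6, 31.5 and 18.9 TPM in CAC and at 148, 106, 110, 61.9 and 75.6 TPM in NCAC, and did not pass the limma test at 2 weeks (log2 difference -1.19, adjusted p 0.187). At 4 weeks, in other mice, Ighm was lower in CAC (-2.22, adjusted p 0.0032).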
